A study of Mus musculus with 38 samples.

Results

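Histone marks at 9 genes of the Hedgehog pathway were followed while SOX9 was induced in mouse epidermal stem cells (EpdSCs). The genes were *Shh*, *Gas1*, *Ptch1*, *Hhip*, *Smo*, *Sufu*, *Gli1*, *Gli2* and *Gli3*, chosen by name as core members of the pathway, and make up 9 of the 21938 protein-coding genes annotated on 21 chromosomes. Each gene was taken with 50 kb on both sides, and every called interval of H3K27ac or H3K4me1 that touched this window by at least 1 bp was counted. H3K27ac marks active enhancers and promoters, and H3K4me1 marks enhancers that are primed as well as active ones.

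The skin cells came from male mice of genotype K14rtTA; TRE-myc-Sox9, in which a keratin 14 promoter confines the doxycycline (DOX)-dependent activator to skin epithelium and a MYC-tagged SOX9 is switched on by DOX, started at postnatal day 21. Cells were sorted as CD31, CD45, CD117 and CD140a negative, CD49f high, CD34 negative and Ly6A high at D0 (before induction) and after 1, 2, 6 and 12 weeks of DOX (W1, W2, W6, W12), with the W12 skin having been carried as a graft by immunocompromised hosts. The cultured cells were keratinocytes of back skin with DOX-inducible wild-type (WT) SOX9, ΔHMG-SOX9 without the DNA-binding domain or ΔTA-SOX9 without the transactivation domain. MINT-ChIP, a form of ChIP-seq that tags the chromatin of each sample with a barcode and then precipitates tagged samples in pools, was run on 38 samples, and the values below come from 14 lists of called intervals: 5 of H3K27ac and 5 of H3K4me1 in skin (1 per time), and 4 of H3K4me1 in cultured cells (uninduced WT, and each of the 3 SOX9 forms after DOX).

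Each list pools its replicates. The lists give no spread between replicates, so no difference between lists could be tested, and 95% intervals (exact Clopper-Pearson for shares, exact Poisson for pileups) cover counting error only. Pooled chromatin also cannot tell a weaker mark in every cell from a mark in fewer cells. The skin samples were precipitated in separate pools, each at high and low MNase digestion: D0 and W1 in a pool each, W2 replicate 1 together with W12, W2 replicate 2 alone and the W6 replicates apart. Time therefore cannot be told apart from pool, nor at W12 from residence in a graft. The 2 culture samples, 1 at low and 1 at high MNase digestion, are labelled for the SOX9 variants together. Their labels name no separate replicates of a SOX9 form.

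In the Hedgehog pathway a secreted ligand (SHH in hair follicles) binds the receptor PTCH1, which otherwise holds the transducer SMO inactive. GAS1 helps ligand to reach PTCH1, and HHIP binds ligand and takes it away. Once SMO is released, GLI proteins leave their inhibitor SUFU and act in the nucleus, GLI2 mainly as activator, GLI3 mainly as repressor in the absence of ligand, and GLI1 as an activator that is itself a target of the pathway, as are *Ptch1* and *Hhip*. The pathway drives hair follicle growth, and its unchecked activity in epidermis is the hallmark of basal cell carcinoma.

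Keratinocyte markers were acetylated in these lists. An H3K27ac peak lay within 1000 bp of a start site for 7 of 7 keratinocyte markers in every list but W12, which had 6 (without *Krt15*), and for 0 of 7 fibroblast and 0 of 6 immune markers in all lists. Of 5 endothelial markers, none had a peak at D0, W1 or W2, 1 had one at W6 (*Pecam1*, fold 4.77) and 2 at W12 (*Pecam1*, 14.9, and *Emcn*, 3.54), although *Pecam1* encodes the CD31 that the sort selects against. Of 6 melanocyte markers 2 had a peak at W1 and 1 in each other list, with *Pmel* at a fold of 13.3 at D0. Of 6 hair follicle stem cell markers, 3 had a peak at D0, W1 and W6, 4 at W2 and 2 at W12, *Lgr5* and *Cd34* in no list. Peak fold is the pileup at the summit (the reads or fragments stacked there) plus 1 over the background plus 1. The genome-wide background, which rises with depth, was 0.501 reads or fragments at D0 and then 0.299, 0.426, 0.677 and 0.412 from W1 to W12, so W1 was the shallowest list and W6 the deepest. The smallest pileup called at this background was 4 at D0, W2 and W12, 3 at W1 and 5 at W6, and a region without a peak was not detectable under the caller's settings rather than shown to lack the mark.

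The *Gli2* start site had no H3K27ac peak at D0, carried one at W1, W2 and W6, and had none at W12, within an H3K4me1 domain that was called in all 5 lists. Such a history was about as frequent here as in the genome (3.41% beside 1.85% of merged regions, with 1.85% inside the counting interval). A peak inside *Gli1* was present throughout, at 9.99 (3.24 to 23.3) times background at D0 and 32.9 (18.0 to 55.2) at W2, with overlapping intervals. The start sites of *Gas1*, *Ptch1* and *Smo* carried H3K27ac in every list, and that of *Gli3* in every list but W12. *Shh* had no peak in any list, and *Hhip* a single weak one at W12.

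The sequences behind these regions are shown first, each taken on the plus strand of GRCm38.p6 (the build of the lists, mm10) around the summit of the peak named. Capitals mark every match to the motifs searched on both strands: GACCACCCA (GLI), ACAAT and ACAAAG (SOX), TGANTCA (AP1) and TGTGGT (RUNX). The first window is the strongest W2 peak among the regions that D0 lacked and W2, W6 and W12 had, 7.9 kb upstream of *Sufu*. The second is the strongest peak of any merged region at the start site of a member, and is cut to 264 bases to leave out annotated untranslated sequence. This D0 peak lies over the start of *Actr1a*, the divergent neighbour of *Sufu*, with its summit 1.33 kb from the nearest *Sufu* start. Its merged region, but not the D0 peak itself, comes within 1000 bp of a *Sufu* start. The other windows were chosen after their values were seen, because the results turn on them: the *Gli2* start site and a region far upstream of it that appeared with it, the intronic *Gli1* peak, a region upstream of *Gas1* that gained both marks, and the start sites of *Ptch1* and *Gli3* as regions already acetylated at D0.
Sufu upstream, chr19:46388822-46389121: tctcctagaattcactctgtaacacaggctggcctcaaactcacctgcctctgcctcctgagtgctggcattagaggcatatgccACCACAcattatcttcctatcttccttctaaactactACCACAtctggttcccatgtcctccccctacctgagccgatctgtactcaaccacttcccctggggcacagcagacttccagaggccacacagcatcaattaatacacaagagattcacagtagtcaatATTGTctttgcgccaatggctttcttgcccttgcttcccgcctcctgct
Sufu and Actr1a start sites, chr19:46395414-46395677: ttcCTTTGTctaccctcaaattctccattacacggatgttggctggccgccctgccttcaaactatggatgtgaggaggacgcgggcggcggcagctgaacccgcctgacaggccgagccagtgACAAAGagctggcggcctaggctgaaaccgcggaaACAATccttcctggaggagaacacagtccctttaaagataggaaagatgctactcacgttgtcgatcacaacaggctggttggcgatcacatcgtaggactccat
Gli2 start site, chr1:119052975-119053274: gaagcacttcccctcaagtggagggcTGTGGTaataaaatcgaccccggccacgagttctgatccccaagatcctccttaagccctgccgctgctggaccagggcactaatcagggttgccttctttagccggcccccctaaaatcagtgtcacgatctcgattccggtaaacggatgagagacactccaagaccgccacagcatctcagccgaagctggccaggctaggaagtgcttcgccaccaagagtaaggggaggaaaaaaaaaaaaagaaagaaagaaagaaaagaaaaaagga
Gli2 upstream, chr1:119097542-119097841: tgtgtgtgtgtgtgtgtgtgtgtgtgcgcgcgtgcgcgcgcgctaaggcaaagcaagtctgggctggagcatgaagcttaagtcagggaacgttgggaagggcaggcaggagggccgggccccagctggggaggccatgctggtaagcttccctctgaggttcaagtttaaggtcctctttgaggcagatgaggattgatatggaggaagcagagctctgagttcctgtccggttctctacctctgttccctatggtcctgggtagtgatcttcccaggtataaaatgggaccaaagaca
Gli1 intron, chr10:127339534-127339833: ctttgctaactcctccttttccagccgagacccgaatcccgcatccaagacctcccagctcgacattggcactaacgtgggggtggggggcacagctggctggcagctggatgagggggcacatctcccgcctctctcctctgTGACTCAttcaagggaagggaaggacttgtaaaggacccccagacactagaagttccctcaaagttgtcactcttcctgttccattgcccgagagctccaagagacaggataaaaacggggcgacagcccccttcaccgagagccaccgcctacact
Gas1 upstream, chr13:60217135-60217434: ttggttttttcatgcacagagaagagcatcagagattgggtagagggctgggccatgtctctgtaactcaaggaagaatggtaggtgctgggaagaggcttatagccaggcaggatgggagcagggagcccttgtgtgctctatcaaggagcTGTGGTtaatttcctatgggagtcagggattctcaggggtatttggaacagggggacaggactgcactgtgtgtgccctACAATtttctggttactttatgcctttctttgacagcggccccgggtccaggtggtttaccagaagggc
Ptch1 start site, chr13:63565028-63565327: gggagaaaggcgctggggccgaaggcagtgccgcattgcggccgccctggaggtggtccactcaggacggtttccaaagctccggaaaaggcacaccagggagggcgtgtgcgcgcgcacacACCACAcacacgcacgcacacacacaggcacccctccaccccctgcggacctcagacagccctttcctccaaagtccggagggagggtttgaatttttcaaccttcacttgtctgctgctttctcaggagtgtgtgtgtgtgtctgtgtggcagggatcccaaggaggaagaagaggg
Gli3 start site, chr13:15463548-15463847: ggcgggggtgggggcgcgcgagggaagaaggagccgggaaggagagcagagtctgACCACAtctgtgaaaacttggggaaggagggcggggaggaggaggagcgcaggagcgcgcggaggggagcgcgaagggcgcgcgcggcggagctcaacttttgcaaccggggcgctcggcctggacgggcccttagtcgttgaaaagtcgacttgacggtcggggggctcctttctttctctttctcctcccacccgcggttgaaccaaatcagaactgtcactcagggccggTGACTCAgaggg

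The *Gli2* start-site window lies inside the gene, in an intron just after the first exon, and holds 1 RUNX core. The *Gli1* window is intronic and holds 1 AP1 site, a palindrome that reads the same on both strands. The *Gas1* upstream window lies between genes and holds 1 RUNX core and 1 ACAAT, the *Sufu* upstream window holds 2 RUNX cores and 1 ACAAT, and the *Gli2* upstream window, which opens with a run of TG repeats, holds none of the motifs. The window over the start of *Actr1a*, from a peak at D0, holds 1 ACAAT and 2 ACAAAG, the most SOX matches of the 8 windows. The *Ptch1* and *Gli3* windows lie between alternative start sites of their genes. Ptch1 holds 1 RUNX core and Gli3 1 RUNX core and 1 AP1 site. None of the 8 windows holds the GLI motif, which is rare in such windows: between 0.279% and 0.32% of all 300-base summit windows of a list held it, and 0 of the 38 to 50 summit windows at the Hedgehog loci did. The RUNX core was in 18.0% of all W2 windows and in 15 of 50 (30.0%) at the Hedgehog loci, and in 19.7% of all W12 windows and 4 of 40 at these loci. ACAAT was in 31.9% of all W2 windows and 13 of 50 (26.0%) at these loci, ACAAAG in 21.9% and 14 of 50 (28.0%), and the AP1 motif in 9.34% and 5 of 50. A match is a description of the letters and not of binding.

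The ligand gene *Shh* (chr5:28456815-28467256) carried no H3K27ac peak in any of the 5 lists. Its start site nevertheless lay in an H3K4me1 domain in every list, 3000 bp wide at D0 and then 3800 bp, 3200 bp, 2800 bp and 3600 bp from W1 to W12. Over the whole window H3K4me1 covered 17600 bp at D0 and then 14000 bp, 13600 bp, 10400 bp and 9400 bp from W1 to W12. The start-site domain was thus kept while less of the window around it was called. With flanks of 10 kb the W6 and W12 values were 1.08 and 1.2 times the D0 value, against 0.602 and 0.547 with 50 kb. The distant enhancers for which *Shh* is known lie beyond 50 kb and were not analysed here.

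The *Gas1* start site (gene at chr13:60174405-60177365) was acetylated throughout. Peak fold there was 9.33 at D0 and then 7.7, 11.2, 13.7 and 7.79 from W1 to W12. Because fold depends on depth, the pileup behind each was recovered and divided by the background of its list, which gave 26.0 (13.8 to 44.4), 30.1 (13.8 to 57.1), 35.3 (19.7 to 58.1), 32.5 (20.4 to 49.2) and 24.3 (11.7 to 44.7) in the same order. All 5 intervals overlap. The widest peak at the start was 1551 bp at D0 and then 2623, 3495, 3716 and 447 bp from W1 to W12, beside median peak widths of 635, 642, 821, 715 and 476 bp over each whole list. Over the whole window H3K27ac covered 3835, 5389, 6445, 4287 and 447 bp from D0 to W12, the last from the start-site peak alone. H3K4me1 covered 25965 bp at D0 and then 24965, 33565, 26765 and 21565 bp from W1 to W12.

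A region 39.9 kb upstream of *Gas1* (chr13:60216488-60217489) gained both marks. No H3K4me1 domain lay over it at D0, and one did at W1 (3200 bp), W2 (3600 bp), W6 (3600 bp) and W12 (1600 bp). H3K27ac was called there at W2 (fold 4.91, pileup 6) and W6 (3.58, pileup 5) and in no other list. In culture, H3K4me1 was called there with WT SOX9 (638 bp, fold 3.86) and not without DOX, with ΔHMG or with ΔTA. Both acetylation peaks are within 2 reads or fragments of the smallest pileup called in their lists. A second upstream region (chr13:60224322-60226785) carried H3K27ac at D0, W1 and W2, with folds of 7.33, 4.62 and 7.72, and none at W6 or W12, while its H3K4me1 domain was called in all 5 lists.

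At *Ptch1* (chr13:63508328-63573598) the region over its alternative start sites (chr13:63563313-63566924) had folds of 11.3 at D0 and then 7.7, 7.02, 11.9 and 7.79 from W1 to W12. Divided by background these were 32.0 (18.3 to 51.9), 30.1 (13.8 to 57.1), 21.2 (9.67 to 40.2), 28.1 (16.9 to 43.9) and 24.3 (11.7 to 44.7). The receptor gene, which is a common readout of Hedgehog activity, thus had overlapping intervals in all 5 lists at its start sites, and these intervals leave room for differences of several times. Each value is that of the highest peak of a list in this region, and these peaks differ in place. The highest W12 peak (chr13:63566014-63566924) overlapped no D0 peak, and the W12 peaks that did had folds of 3.54 and 4.25. H3K27ac covered 2645 bp of its window at D0 and then 3130, 2358, 3379 and 1918 bp from W1 to W12, and H3K4me1 covered 23400 bp at D0 and then 21000, 31000, 25400 and 21800 bp. A further region lay about 2.2 kb upstream of these start sites, still inside the gene record (chr13:63567544-63568533). It was read at 22.0 (11.0 to 39.3) at D0 and then 16.7 (5.43 to 39.0), 11.8 (3.82 to 27.4) and 35.5 (22.7 to 52.8) from W1 to W6, with no peak at W12. It was lowest at W2 and highest at W6, where the intervals still overlap. Of the 6 regions seen at D0 only, 1 of the 2 with the highest fold (5.33) was intronic in *Ptch1* (chr13:63548976-63549309), and the other was intronic in *Gli2* (chr1:119014413-119015136).

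*Hhip* (chr8:79965851-80058006), which encodes the decoy receptor, was the locus with least H3K4me1 in every skin list. It was covered over 17000 bp at D0 and then 7800 bp, 9600 bp, 2000 bp and 5200 bp from W1 to W12. At W6 the only domain left was the one at the start site, 2000 bp wide, whose width had been 3200 bp at D0, 2600 bp at W1 and 3400 bp at W2 and was 2200 bp at W12. No H3K27ac peak was called in the window at D0, W1, W2 or W6. The W12 peak lay 111 kb from the start site, beyond the end of the gene (chr8:79946260-79947071), had a pileup of 4, the smallest called, and lay in no H3K4me1 domain.

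*Smo* (chr6:29735503-29761365) had folds at its start site of 12.7 at D0 and then 4.62, 6.32, 9.54 and 6.38 from W1 to W12. Over background they were 36.0 (21.3 to 56.8), 16.7 (5.43 to 39.0), 18.8 (8.12 to 37.0), 22.2 (12.4 to 36.6) and 19.4 (8.39 to 38.3). D0 was the highest of the 5 lists for this transducer, but its interval overlaps each of the others. The W1 peak (chr6:29736246-29736613) lay next to the D0 peak (chr6:29735488-29736238) without overlapping it. At W1 this pair therefore counts as a gain and a loss in the shares below. H3K4me1 flanked this start in 2 domains in every list. The domain just inside the gene was 7800 bp wide at D0 and then 4400, 4400, 4200 and 3000 bp from W1 to W12, and the one just upstream 10800 bp and then 1600, 1200, 1000 and 10600 bp. Over the window H3K4me1 covered 50898 bp at D0 and then 31698, 33898, 37898 and 39498 bp from W1 to W12. A W12 peak in an intron of *Smo* (chr6:29747733-29749123) had a fold of 12.5, from a pileup of 21 over a local background of 0.756. This was 27.8 times the local and 51.0 times the genome-wide background, and no H3K4me1 domain lay there in any of the 9 lists of that mark. The 2 endothelial markers with a peak were in the same list, and their part in this peak was not tested.

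At *Sufu* (chr19:46396896-46488804), the gene of the GLI inhibitor, the region over its own start sites (chr19:46396690-46397513) stood at 16.0 (6.9 to 31.5) times background at D0 and then 16.7 (5.43 to 39.0), 23.5 (11.3 to 43.2) and 23.7 (13.5 to 38.4) from W1 to W6, with no peak at W12. The adjoining region over the start of *Actr1a* (chr19:46394611-46396344) stood at 89.9 (65.6 to 120) at D0 and 24.3 (11.7 to 44.7) at W12, intervals that do not overlap. H3K27ac covered 10350 bp of the *Sufu* window at D0 and then 10053 bp, 14779 bp, 17566 bp and 11480 bp from W1 to W12, and H3K4me1 covered 98800 bp at D0 and then 77000, 95604, 108309 and 103800 bp. All 5 regions of the Hedgehog loci that D0 lacked and W2, W6 and W12 carried lay in this window. They were the upstream region whose sequence is shown (chr19:46388743-46390782; folds 7.7, 9.12, 7.16 and 3.54 from W1 to W12), the 3′ end of *Sufu* (chr19:46487822-46488853; 5.61, 4.77 and 6.38 from W2 to W12), and 3 regions further upstream, at the starts of *Mfsd13a* and 2310034G01Rik and between them. The window holds 5 other protein-coding genes, so most of these regions cannot be assigned to *Sufu*.

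The gene of the pathway's amplifier, *Gli1* (chr10:127329882-127341974), carried a single region of its own that was called in all lists (chr10:127339006-127340326), in an intron about 2 kb from the start. At the start site itself a peak was called at W1 only (fold 3.85), inside an H3K4me1 domain of 6000 to 7200 bp in every list. The intronic pileup was 5 at D0 and then 8, 14, 18 and 6 from W1 to W12. Over background this was 9.99 (3.24 to 23.3), 26.8 (11.6 to 52.7), 32.9 (18.0 to 55.2), 26.6 (15.8 to 42.1) and 14.6 (5.35 to 31.7). W1, W2 and W6 were each higher than D0 and W12, although every interval overlaps that of D0. At constant regions of the genome (10185 regions present in all 5 lists) the median over background ran the other way, 34.0 at D0 and then 33.5, 30.6, 28.1 and 24.3 from W1 to W12, and relative to it, a comparison chosen after seeing the data, the *Gli1* peak at W2 was 3.66 times that at D0. The constant regions at the starts of neighbouring genes in the same window also ran the other way: *R3hdm2* stood at 61.9 (42.1 to 87.9) at D0 and 14.8 (7.09 to 27.2) at W6, and *Ddit3* with *Mbd6* at 95.9 (70.7 to 127) at D0 and 42.3 (25.1 to 66.9) at W2. Over all regions of the Hedgehog loci that were called at D0 as well, the interval lay below that of D0 in 1 of 25 at W2, 1 of 24 at W6 and 4 of 15 at W12 and in none of 22 at W1. None lay above it. The regions below D0 were at the starts of neighbouring genes, and the region at *Actr1a* also counts as a start-site region of *Sufu*. With only regions in the better-ranked part of each list, the *Gli1* peak was left at W1, W2 and W6.

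**Figure D1:**
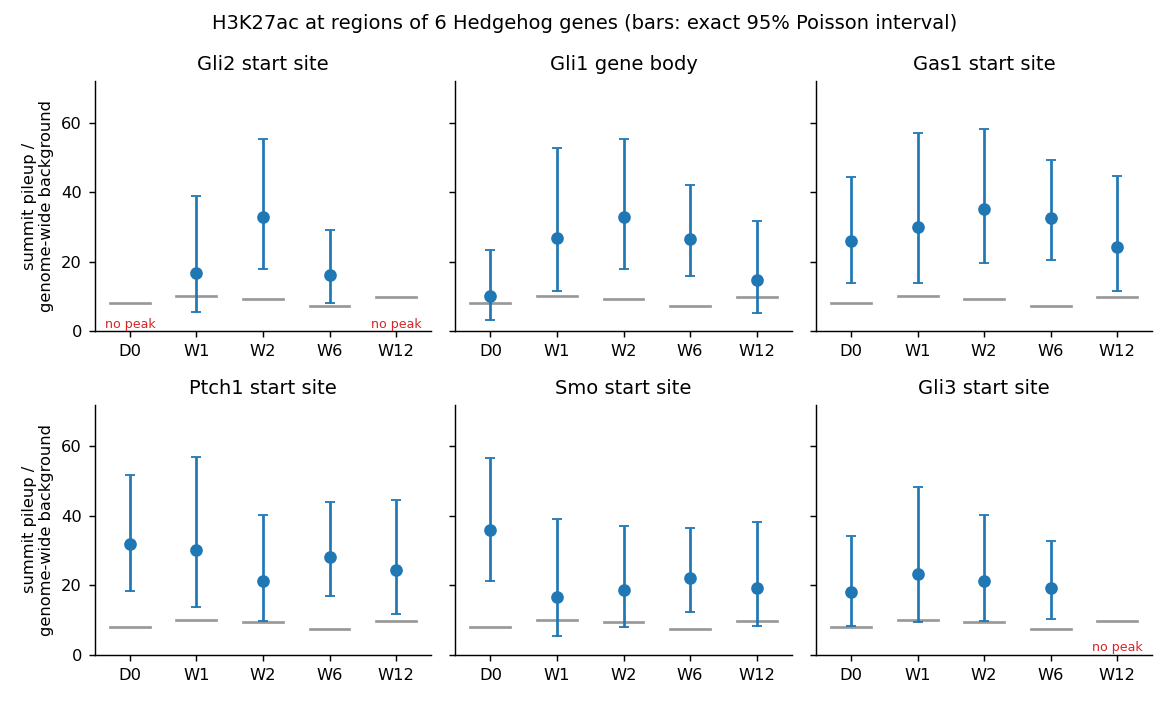
H3K27ac summit pileup divided by the genome-wide background of its list (vertical axis) at a region of 6 Hedgehog genes in the 5 pooled lists (horizontal axis), with exact 95% Poisson intervals as bars and the smallest pileup called in each list as grey lines. Each point is the highest peak of the list in the region, which can differ in place between lists. The Gli2 start site has no peak at D0 and W12 and stands at 32.9 at W2, the Gli1 intronic region goes from 9.99 at D0 to 32.9 at W2, and the other start sites have overlapping intervals in every list that has a peak.

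*Gli2* (chr1:118834132-119053619), which encodes the main activator and is the only protein-coding gene in its window, had 7 of the 22 peaks that D0 lacked at W1, 11 of 24 at W2, 4 of 17 at W6 and 4 of 23 at W12, in the second-longest window of the 9. Its start-site region (chr1:119051199-119053469) had no H3K27ac peak at D0, a fold of 4.62 at W1, 10.5 at W2 and 7.16 at W6, and no peak at W12. The pileups were 5, 14 and 11, or 16.7 (5.43 to 39.0), 32.9 (18.0 to 55.2) and 16.3 (8.12 to 29.1) times background, and the peak was 1111 bp wide at W1, 2271 bp at W2 and 325 bp at W6. The lower bound at W2, the highest list, lies above 7.99, the smallest value called at D0, and above 9.72, that at W12. The bound at W1 (5.43) lies below both, and that at W6 (8.12) lies below 9.72. The region was singled out after its values were seen, so this comparison is a description and not a test. A further 2 regions shared this history, one 5.8 kb into the gene (chr1:119047484-119048099; 36.8 at W1, 23.5 at W2 and 14.8 at W6 times background) and one 44 kb upstream (chr1:119097338-119098588; 40.1, 14.1 and 19.2). These 3 regions were the only ones at the Hedgehog loci that were absent at D0 and W12 and present at W1, W2 and W6, 3 of 88 merged regions (3.41%, 0.709 to 9.64%) beside 1.85% of all 65311 merged regions. A region 11 kb upstream (chr1:119064204-119065539) was called in all lists, at 16.0, 23.4, 21.2, 13.3 and 14.6.

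H3K27ac covered 3569 bp of the *Gli2* window at D0 and then 6753 bp, 10951 bp, 4692 bp and 2250 bp from W1 to W12, with 6, 10, 15, 8 and 5 peaks. H3K4me1 covered 94200 bp at D0 and then 104400 bp, 201800 bp, 124600 bp and 115000 bp from W1 to W12, that is 29.5% of the window at D0 and 63.2% at W2. W2 was the highest list for both marks. The domain over the *Gli2* start site was 7400 bp wide at D0 and then 10600 bp, 15400 bp, 8800 bp and 8200 bp from W1 to W12, so the start site was marked by H3K4me1 before induction.

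**Figure D2:**
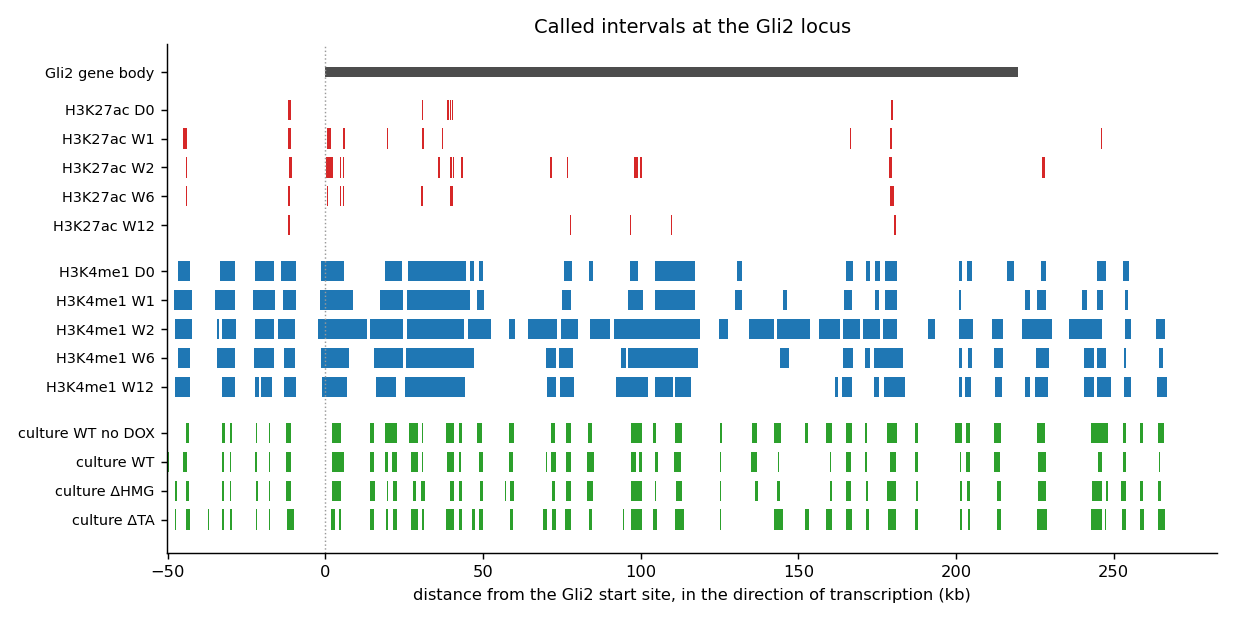
Called intervals at the Gli2 locus, by distance from the Gli2 start site in the direction of transcription (kb, horizontal axis), in 1 row per pooled list for H3K27ac (red), H3K4me1 in skin (blue) and H3K4me1 in culture (green). H3K27ac appears at the start site at W1, W2 and W6, and H3K4me1 covers 201800 bp at W2 against 94200 bp at D0.

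*Gli3* (chr13:15463235-15730026), which encodes the main repressor, was acetylated at its start sites (chr13:15462684-15464846) at 18.0 (8.22 to 34.1) times background at D0 and then 23.4 (9.41 to 48.2), 21.2 (9.67 to 40.2) and 19.2 (10.2 to 32.9) from W1 to W6, with no peak at W12. A region 36 kb upstream (chr13:15426422-15427191) was called in all lists, at 26.0, 23.4, 28.2, 20.7 and 14.6. H3K4me1 covered 104400 bp of this large window at D0 and then 70800 bp, 134366 bp, 68800 bp and 78200 bp from W1 to W12. *Gli2* and *Gli3* thus both had most H3K4me1 at W2, as did *Gas1* and *Ptch1*. Unlike *Gli3*, *Gli2* had no H3K27ac peak at its start site at D0, nor had *Gli1*, *Shh* or *Hhip*. The difference between *Gli2* and *Gli3* was not tested.

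Over the 9 loci together, 22 of 47 H3K27ac peaks at W1 (46.8%, 32.1 to 61.9%) had no counterpart at D0, 24 of 50 at W2 (48.0%, 33.7 to 62.6%), 17 of 45 at W6 (37.8%, 23.8 to 53.5%) and 23 of 40 at W12 (57.5%, 40.9 to 73.0%). Over all peaks these shares were 41.3%, 40.1%, 39.8% and 56.2%, each within the interval of the Hedgehog loci. Of the 38 peaks at D0, 14 had no counterpart at W1 (36.8%, 21.8 to 54.0%), 9 at W2 and 9 at W6 (23.7%, 11.4 to 40.2%, in each) and 22 at W12 (57.9%, 40.8 to 73.7%), beside 37.4%, 38.6%, 37.8% and 53.7% of all D0 peaks. *Sufu* had 6 of the 24 gains at W2, 8 of the 17 at W6 and 9 of the 23 at W12, *Gli3* 6 of the 22 at W1 and 6 of the 23 at W12. Losses at W2 and W6 were a lower share than elsewhere, but with the genome-wide share still inside the interval.

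H3K4me1 domains without a D0 counterpart numbered 7 of 108 at W1 (6.48%, 2.65 to 12.9%), 27 of 120 at W2 (22.5%, 15.4 to 31.0%), 17 of 107 at W6 (15.9%, 9.54 to 24.2%) and 13 of 105 at W12 (12.4%, 6.76 to 20.2%), beside 5.96%, 20.0%, 17.1% and 15.6% of all domains. *Gli2* gave 10 and *Gli3* 8 of the 27 at W2. Of the 123 domains at D0, 26 were lost at W1 (21.1%, 14.3 to 29.4%), 22 at W2 (17.9%, 11.6 to 25.8%), 32 at W6 (26.0%, 18.5 to 34.7%) and 31 at W12 (25.2%, 17.8 to 33.8%), beside 27.8%, 32.4%, 26.6% and 31.2% of all. At W2 the interval of the share lost lay below the genome-wide share, and among the better-ranked domains the share was 21.6% (12.9 to 32.7%) beside 33.3%. These intervals treat neighbouring domains as independent, although *Gli2*, *Gli3* and *Sufu* held 24, 29 and 17 of the 123. W2 was also picked out from several shares, and the difference was not tested. Several lists differ in length, and H3K4me1 depth is unknown.

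Of the 88 merged H3K27ac regions at the Hedgehog loci, 8 lay at a member's own start site, 8 at the start of a neighbouring gene, 44 elsewhere in a member's gene body and 28 in the flanks, 16 upstream and 12 downstream. In all 5 lists were 14 (15.9%, 8.98 to 25.2%), beside 15.6% of all merged regions, and in 1 list only were 47 (53.4%, 42.5 to 64.1%), beside 55.1%. The D0-only regions numbered 6 (6.82%, 2.54 to 14.3%), beside 9.29%, and the regions absent at D0 and present at W2, W6 and W12 numbered 5 (5.68%, 1.87 to 12.8%), beside 2.54%. The interval of each of these shares includes that of the genome. Of the 55 regions without H3K27ac at D0, 46 (83.6%, 71.2 to 92.2%) already overlapped an H3K4me1 domain at D0, beside 71.8% of all such regions in the genome, and of the 33 with H3K27ac at D0, 31 did.

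**Figure D3:**
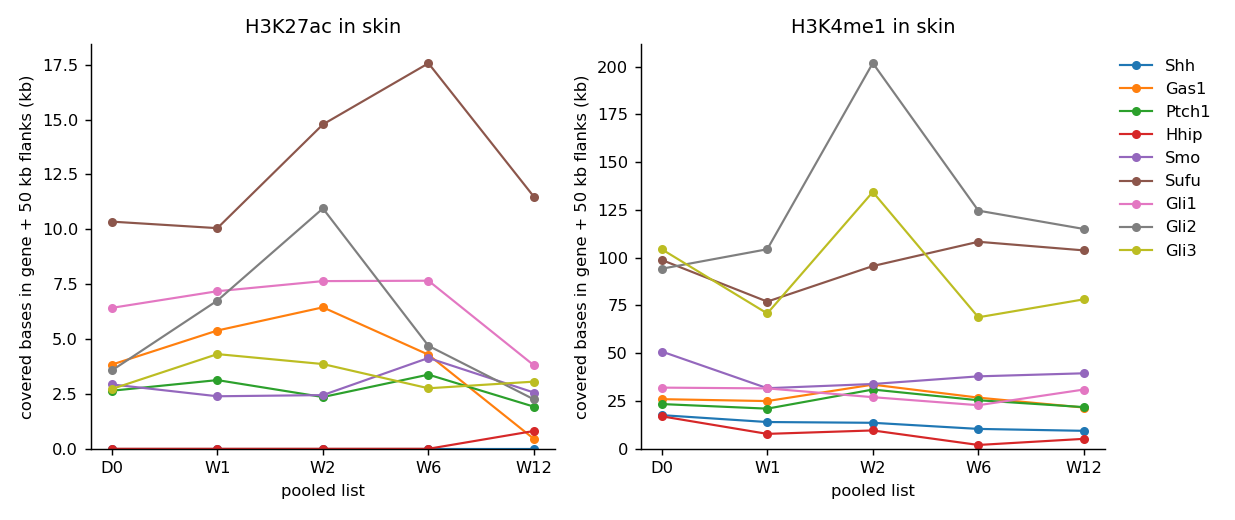
Bases covered by called intervals in each gene with 50 kb flanks (kb, vertical axis) in the 5 pooled lists, for H3K27ac (left) and H3K4me1 (right), with 1 line per gene and no replicates. Gli2 is highest at W2 for both marks, Sufu is highest at W6 for H3K27ac (17566 bp), and Shh and Hhip are lowest for H3K4me1 at W12.

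To set the loci beside all others, covered bases in each list, with 500 bp added, were divided by those at D0, and a locus was counted as up at a ratio of 1.5 or more and as down at 1/1.5 or less. For H3K27ac, 7 of the 9 loci had an interval in either list at W1, W2 and W6 and 8 at W12. *Gli2* was up at W1 (ratio 1.78, and 1.5 with flanks of 10 kb), 1 of 7 beside 16.3% of all loci, and none was down, beside 15.4%. At W2 *Gli2* (2.81) and *Gas1* (1.6, or 1.41 once covered bases were divided by those of the list) were up, 2 of 7 beside 20.3%, and none was down, beside 13.8%. At W6 *Sufu* was up (1.67), 1 of 7 beside 23.6%, and none was down, beside 11.2%. At W12 *Hhip* was up (2.62, from its single weak peak), 1 of 8 beside 17.4%, and *Gas1* (0.219) and *Gli1* (0.621) were down, 2 of 8 beside 35.5%. With flanks of 10 kb the *Gli1* ratio was 1.2. The median ratio of the members went through 1.15, 1.35, 1.23 and 0.83 from W1 to W12, and that of all loci through 0.994, 1.05, 1.14 and 0.802.

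For H3K4me1 all 9 loci had intervals. None was up and *Smo* (0.626, or 0.74 once covered bases were divided by those of the list) and *Hhip* (0.474) were down at W1, beside 2.18% up and 16.9% down of all loci. At W2 *Gli2* was up (2.14) and *Hhip* down (0.577), beside 8.56% and 18.9%. At W6 none was up and *Gli3* (0.661, or 0.752 after the same division), *Shh* (0.602, or 0.698) and *Hhip* (0.143) were down, beside 7.08% and 17.6%, and at W12 none was up and *Shh* (0.547) and *Hhip* (0.326) were down, beside 7.07% and 18.9%. *Hhip* was down in all 4 comparisons, which share the D0 list. Counts of 0 to 3 among 9 loci are too few to set apart from these shares. The median ratio of the members was 0.801, 0.968, 0.747 and 0.834, beside 0.843, 0.893, 0.884 and 0.865 over all loci.

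**Figure D4:**
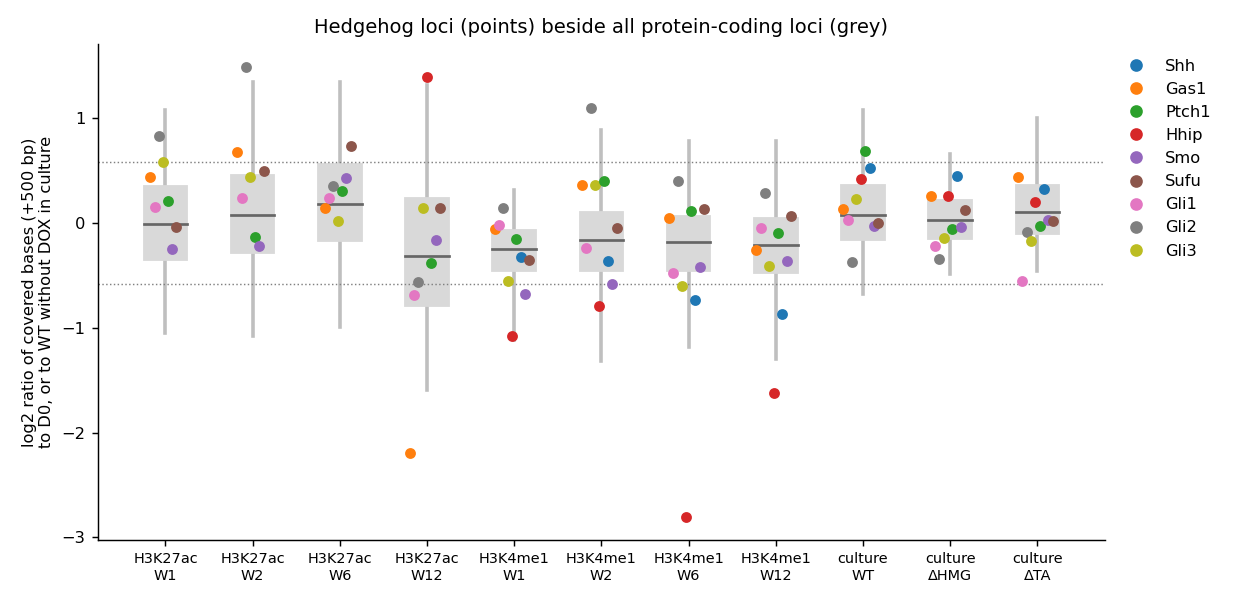
Log2 ratio of covered bases, with 500 bp added, to D0 or in culture to WT without DOX (vertical axis), for each Hedgehog locus (points) and for all protein-coding loci (grey box, middle 50%; grey line, 5th to 95th percentile; dark line, median), with dotted lines at 1.5-fold. Gli2 lies above the grey line at W2 for both marks, at 1.49 for H3K27ac and 1.1 for H3K4me1, and Hhip lies at -2.81 at W6 for H3K4me1.

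The wider pathway was read from a list of 31 other genes of ligand release, reception, ciliary transduction and targets. For H3K27ac, 4 were up and 8 down at W1 of 30 with an interval, 8 up and 6 down at W2 of 31, 7 up and 6 down at W6 of 30, and 1 up and 13 down at W12 of 30. The median ratio was 0.965, 1.01, 0.998 and 0.699. Over all loci, 16.3%, 20.3%, 23.6% and 17.4% were up from W1 to W12, and 15.4%, 13.8%, 11.2% and 35.5% were down. Down calls were thus a larger share here at each time. Up calls were a smaller share at W1 and W12, nearly equal at W6 and larger at W2. Several of these genes share windows, and some down calls start from little coverage at D0: 293 bp at *Ihh*, 302 bp at *Lrp2*, and 597 bp at *Evc* and *Evc2*. The differences were not tested. There were 4 of the 31 called in the same direction at both W2 and W6 (12.9%), which share the D0 list, beside 19.1% of all loci with an interval. *Boc*, a coreceptor for SHH, was covered over 4779 bp at D0, 14376 bp at W2 and 12699 bp at W6 (ratios 2.82 and 2.5), and *Kif7*, a ciliary regulator of GLI proteins, over 788 bp at D0, 3816 bp at W2 and 2776 bp at W6 (3.35 and 2.54). *Evc* and *Evc2*, ciliary partners of SMO with overlapping windows, had the same 597 bp at D0 and none at W2 or W6. At W12 the ratios were 0.963 for *Boc*, 0.994 for *Kif7*, 0.842 for *Evc* and 0.456 for *Evc2*.

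In culture, 29 of 158 H3K4me1 domains at the Hedgehog loci were gained with WT SOX9 against WT without DOX (18.4%, 12.7 to 25.3%), 22 of 159 with ΔHMG (13.8%, 8.88 to 20.2%) and 21 of 151 with ΔTA (13.9%, 8.82 to 20.5%). Over all domains these shares were 29.1%, 19.3% and 25.8%. Of the 145 domains without DOX, 18 were lost with WT (12.4%, 7.53 to 18.9%), 9 with ΔHMG (6.21%, 2.88 to 11.5%) and 17 with ΔTA (11.7%, 6.98 to 18.1%), beside 25.1%, 15.6% and 17.5% of all. The intervals of the Hedgehog loci lie below the genome-wide share for gains with WT and ΔTA and for losses with WT and ΔHMG, and include it for gains with ΔHMG and losses with ΔTA. They too treat neighbouring domains of a window as independent, and the differences were not tested. Among the better-ranked domains alone the shares gained and lost with WT were 25.8% (17.3 to 35.9%) and 22.7% (14.5 to 32.9%), beside 36.3% and 32.9% of all such domains. *Gli3* had 8 of the 29 gains with WT, *Ptch1* and *Sufu* 4 each, and *Shh* none.

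The top-scored domain gained with WT SOX9 lay upstream of *Sufu* (chr19:46369230-46369706, fold 7.36) and was also called with ΔHMG. Next came a domain within *Gli3* (chr13:15641042-15641927, fold 5.17) that was called with neither ΔHMG nor ΔTA. The top-scored domain lost with WT lay upstream of *Sufu* too (chr19:46363237-46363931, fold 4.84 without DOX) and was kept with ΔHMG and ΔTA. At *Ptch1*, H3K4me1 covered 6498 bp without DOX, 10754 bp with WT, 6223 bp with ΔHMG and 6354 bp with ΔTA. It was the only locus that passed 1.5-fold, with WT (1.61), 1 of 9 beside 14.3% of all loci up and 6.59% down. None passed with ΔHMG, beside 6.52% up and 3.42% down, and none with ΔTA, beside 14% and 2.94%. Of the 4 domains *Ptch1* gained with WT, 3 were called with neither variant, among them 2684 bp inside the gene (chr13:63555875-63558558). Of the 8 domains at *Ptch1* without DOX, 3 were lost with WT. Among them was the only one at the 2 start sites used (341 bp), which was also lost with ΔHMG and ΔTA. These start sites lie inside the gene record, and a domain near its upstream end (chr13:63572506-63573533) was kept with WT, ΔHMG and ΔTA. The *Ptch1* call was lost when covered bases were divided by those of the whole list (1.45) and with flanks of 10 kb (1.29) or 100 kb (1.3).

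At *Gli2* less of the window was called with WT SOX9 than without DOX. It was covered over 63322 bp without DOX, 48753 bp with WT, 49787 bp with ΔHMG and 59548 bp with ΔTA, and no domain lay within 1000 bp of its start site in any culture list. The nearest domain, inside the gene, was 2856 bp wide without DOX, 3957 bp with WT, 2856 bp with ΔHMG and 1297 bp with ΔTA. Culture and skin lists differ in format and were not compared as levels. *Gli1* had 16140 bp without DOX, 16514 bp with WT, 13834 bp with ΔHMG and 10872 bp with ΔTA, *Gli3* 35023, 41003, 31672 and 31061 bp, *Shh* 3696, 5525, 5240 and 4767 bp, and *Hhip* 7526, 10262, 9093 and 8747 bp. *Gas1* (5026 to 6975 bp), *Smo* (15813 to 16559 bp) and *Sufu* (46905 to 51403 bp) had the ranges given here over the 4 lists.

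**Figure D5:**
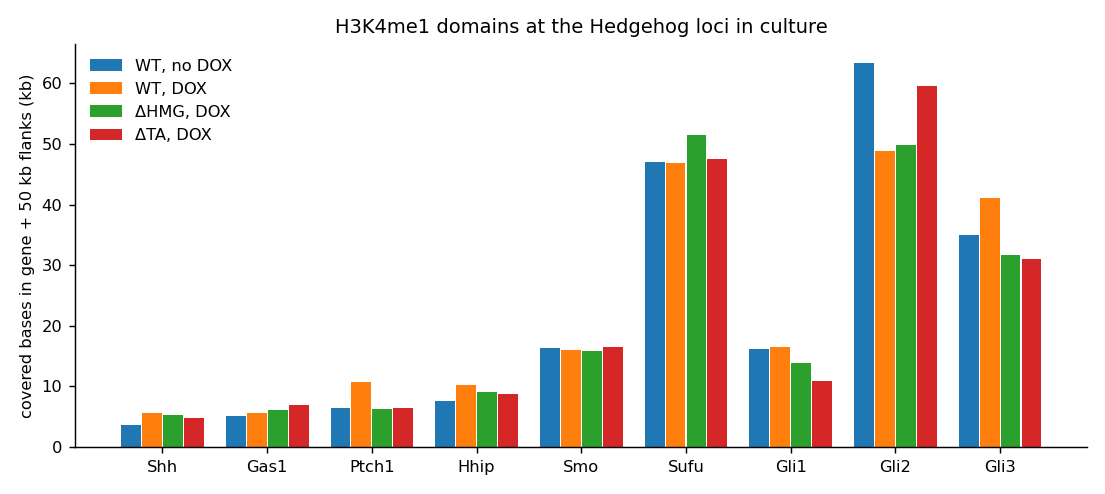
Bases covered by H3K4me1 domains in each Hedgehog gene with 50 kb flanks in culture (kb, vertical axis), with 1 bar per pooled list and no replicates. Ptch1 has 10754 bp with WT SOX9 against 6223 to 6498 bp in the other lists, and Gli2 has 48753 bp with WT against 63322 bp without DOX.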

How the data were processed

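MINT-ChIP data of 38 samples were considered, and samples were grouped by their labels. Per the study's methods and the submitters' processing notes, the authors aligned paired-end reads (of a length that the labels and the methods give differently) to mm10 with Bowtie2 (2.2.9), removed duplicates with Picard, merged replicates with SAMtools (1.9), and called H3K27ac peaks with MACS2 (2.1.1) and H3K4me1 domains with epic2. Caller settings, and how the culture lists were called, are not given in the sources used here. The name of the W12 H3K27ac list alone holds a label that may be a cutoff on q. Whether W12 was called with the settings of the other H3K27ac lists is not stated. For H3K4me1 of skin the deposited lists hold a p-value per domain. For H3K27ac and culture the deposited lists hold, per interval, the fold over background (a ratio), −log10 of p and of q, and a score in whole numbers. Total H3 and 14 barcode files were not used here.

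Start sites and loci came from GENCODE M21 (basic set). Gained and lost meant no overlap of 1 bp. H3K27ac lists were merged into 65311 regions. Pileups were solved from fold and −log10 p under the caller's Poisson model: 83.5% to 96.1% of peaks of a list lay within 0.02 of a whole pileup at the genome-wide background, and the pileup of every peak at the Hedgehog loci was recovered. Python (3.11.15), pandas (2.3.3), numpy (2.4.6) and scipy (1.17.1) were used. Interval functions and pileup recovery were tested on simulated data.

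The members, lists and comparisons were chosen with earlier results of these data known. All 9 members were named, with the strongest regions by set rules, and other pathway genes only where H3K27ac was called alike at W2 and W6. Windows shown for Gli2, Gli1, Gas1, Ptch1 and Gli3 were chosen after their values were seen. Alternatives were other overlaps, ranks, list lengths, joining, flanks, assignment, scaling, thresholds, pseudocounts, window lengths and local background.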

Additional observations from a re-analysis of the deposited data

How the results depend on the processing

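No paired analysis was possible because each list pools its replicates, and for the same reason no replicate could be left out. Of 112 values of the shares and counts under alternatives, 97 stayed within counting error or within 1.5 times. Of 162 values for single loci and regions, 128 stayed, 31 moved and 3 reversed. Here a locus ratio stayed if it was still past the threshold in the same direction, whatever its size. For the 2-fold threshold the reported ratio itself was read against 2. The values other than locus ratios stayed if within 1.5 times. With only intervals above the median rank of each list (the better-ranked ones of the report), the share of culture domains gained with WT was 25.8% and lost 22.7%, 5 members were down for H3K27ac and 4 for H3K4me1 at W12, and 0.0% of merged regions were absent at D0 and present at W2, W6 and W12. With flanks of 10 kb the culture gain was 12.4%, 2 members were up for H3K4me1 at W2 (1 in the report) and 1 was down for H3K27ac at W12. The H3K27ac counts of 2 up at W2 and 2 down at W12 were each 1 after dividing by the bases a list covers, with a 2-fold threshold and with 2000 bp added, and H3K4me1 had 1 member down at W12 with the 2-fold threshold. With flanks of 10 kb 3 ratios reversed, Gli1 at W12 for H3K27ac (1.2) and Shh at W6 (1.08) and W12 (1.2) for H3K4me1. Called Gas1 at W2 came to 1.48 with 10 kb flanks, 1.41 after scaling and 1.45 with 2000 bp added, and called Gli2 at W2 stayed past the threshold for both marks under all 8 alternatives. Smo at W1 for H3K4me1 (0.626) was short of the threshold under each alternative but the other pseudocounts. Of the windows shown, 1 held the AP1 motif at 200 bases and 2 at 300. Local background could not change the pileup ratios at the 6 pairs tried, because all their peaks lay at the genome-wide background. Those 6 values are among the 128 and say nothing on robustness. Of the 197 peaks, 10 had a local background above the genome-wide one. This lowered their ratio 1.05 to 1.83 times, most at the intronic Smo peak of W12 (27.8 for 51.0). The causes were not tested.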
